A study of Mus musculus with 47 samples.

Results

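The early response of JB6 cells to 100 cGy of X-rays was read from 6 of the 47 arrays of the series, 3 from irradiated and 3 from untreated cells of the vector line, all collected at 2 h. These arrays were chosen by their titles, which give line, dose, time and a replicate letter, A, B or C. JB6 is a mouse epidermal line in which tumour promotion is studied, and the labels call the cells progenitor cells. The vector line carried a retroviral vector without a hairpin and was the control for a line with a short hairpin RNA (shRNA) against AnxA2, the gene of annexin A2. Irradiated cells received 100 cGy from an X-RAD 320 cabinet. Untreated cells were sham controls collected at the same time. Cells of both groups had been selected with puromycin and grew in MEM with 5% fetal bovine serum, antibiotics and glutamax. The labels name 1 vector line, so the values describe that line. Anxa2 signal, which checks the labels of the lines, was 12.34 to 12.66 on the 6 vector arrays and 10.85 to 11.22 on the 6 shRNA arrays of the same dose and time. The labels do not say whether replicates were separate cultures, and p-values here measure a spread between samples that may be technical. Groups used for comparison, with 3 arrays each, were 10 cGy vector cells at 2 h, shRNA cells at 2 h with 100 cGy or untreated, and vector cells at 24 h with 100 cGy or untreated. Precision is limited by the 3 arrays in a group.

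X-rays break DNA, and the kinase ATM then signals to p53, a transcription factor that is kept scarce by the ubiquitin ligase Mdm2. Stabilised p53 raises transcription of genes that stop the cell cycle, such as Cdkn1a, of genes for repair and apoptosis, and of Mdm2 itself, which closes a negative feedback loop. In many cell types this is the main transcriptional answer in the first hours after irradiation.

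Values are log2 signals as deposited, and a change is a difference between group means on the log2 scale, 100 cGy minus untreated, with its standard error from limma. This error draws on the spread within all 16 groups of the series, and is not the spread of the compared arrays alone. A change of 1 is a doubling. Of 12393 genes with a named probe set, 8675 lay above a low-signal limit of 4.35 and were tested, and "rose" and "fell" stand for a Benjamini-Hochberg adjusted p under 0.05 over these genes. The labelled epidermal origin was checked against markers first. Of 19 epithelial and keratinocyte markers on the array, 7 lay above the limit. Cdh1, which encodes E-cadherin, averaged 2.39 in 100 cGy and 2.38 in untreated cells, and Epcam, Trp63, Dsp and Krt14 were below the limit too. Of 20 fibroblast and mesenchymal markers 17 lay above it, with Vim at 13.01 in 100 cGy and 13.03 in untreated cells and Col1a2 at 12.16 in 100 cGy and 12.36 in untreated cells. The 7 epithelial markers above the limit were Itga6, Krt10, Lor, Krt8, Lamb3, Itgb4 and Krt5. Itga6 averaged 8.85 in 100 cGy and 9.09 in untreated cells, and Krt10 7.37 in 100 cGy and 7.35 in untreated cells. The mesenchymal markers Thy1, Lum and Fap were below the limit. Thus neither list went the same way throughout. The defining leukocyte marker Ptprc (2.54 in 100 cGy, 2.48 in untreated cells) and endothelial marker Pecam1 (3.32 in 100 cGy, 3.42 in untreated cells) were below the limit.

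The arrays with the letter C stood apart from A and B in both groups. On the first principal component of the 9 vector arrays at 2 h, with 49.6% of their variance, the C array lay at 21.8 in untreated, 18.7 in 10 cGy and 16.1 in 100 cGy cells, against -11.5 to -7.36 for the other 6. The median gene differed between C and the mean of A and B by 0.139 in 100 cGy and 0.208 in untreated cells, and between the 2 dose groups by 0.114. The signal difference between the 3' and 5' Gapdh controls, a sign of RNA quality, was between -0.08 and -0.00 on the 100 cGy arrays and 0.11, 0.02 and 0.59 on untreated A, B and C. Results are therefore given from a fit of group means and from a fit with the letter as a block, which compares arrays of the same letter. The blocked fit estimates the same changes with another error.

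Vector cells raised 4 genes at 2 h after 100 cGy in the fit of group means: Mdm2, Slc19a2, Phlda3 and Cdkn1a, which is 0.0461% of the tested genes. No gene fell (0%) at an adjusted p under 0.05, while 348 genes were higher (4.01%) and 639 lower (7.37%) at an unadjusted p under 0.05. With the letter as a block limma called 12 genes higher (0.138%) and 9 lower (0.104%), and the 4 genes were among the 12. Changes were small, since 15 of all tested genes (0.173%) were at least 1.5-fold higher and 23 (0.265%) at least 1.5-fold lower. The blocked count was 0 when the fit held only the 6 arrays (1200 genes at an unadjusted p under 0.05) or the 9 vector arrays at 2 h (872 genes). Such fits leave few degrees of freedom, and the reason for the lost calls was not tested. The count from group means was also 0 when only the 6 arrays were fitted (665 genes at an unadjusted p under 0.05).

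**Figure D1:**
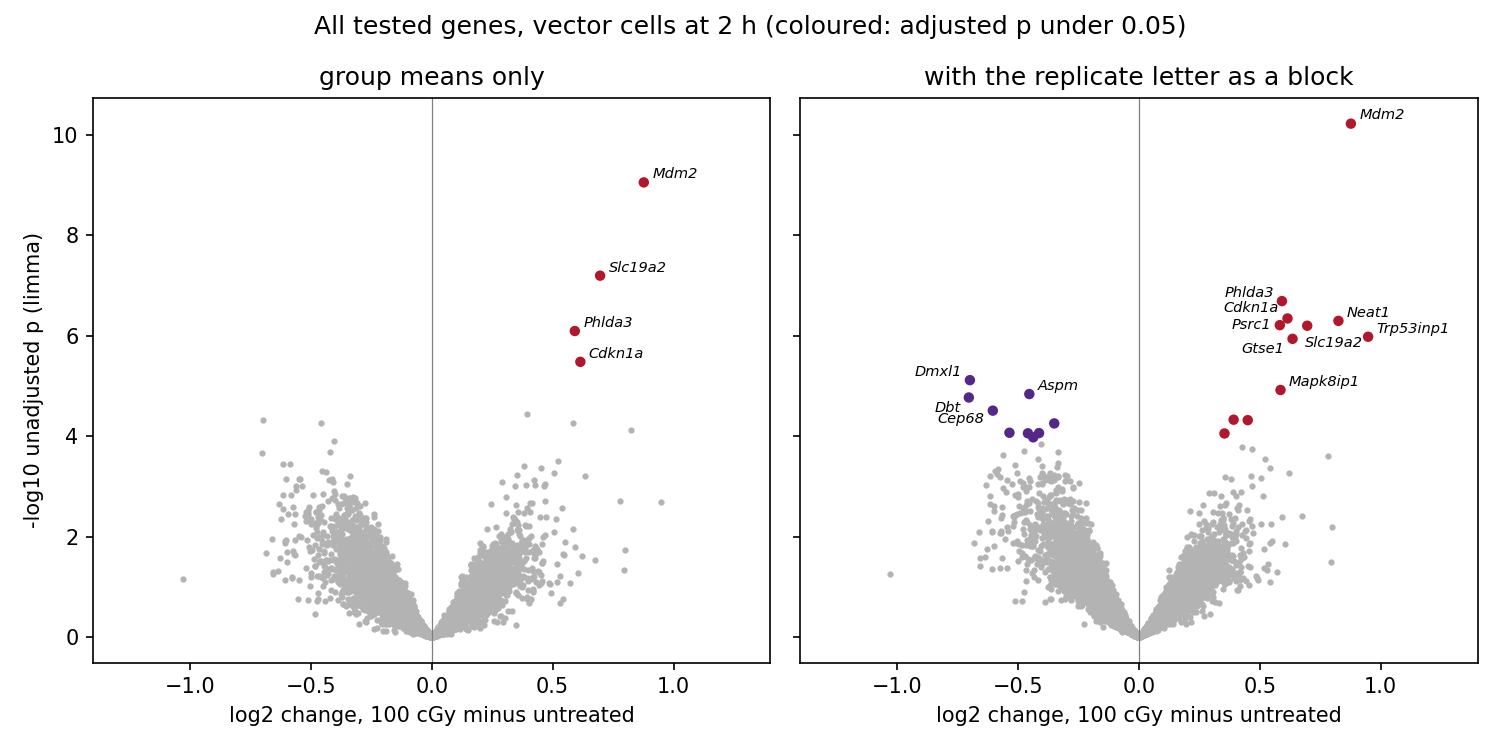
Change (log2, 100 cGy minus untreated) against -log10 of the unadjusted limma p for 8675 genes, from the fit of group means (left) and the fit with the replicate letter as a block (right). Coloured points are genes with an adjusted p under 0.05, 4 higher on the left, and 12 higher (red) and 9 lower (purple) on the right; the called genes with the smallest p are named.

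Mdm2 (chromosome 10, 117688875 to 117710758, minus strand, GRCm38.p6), the ubiquitin ligase that restrains p53, had signals of 10.69, 10.60 and 9.98 on 100 cGy arrays A, B and C, against 9.69, 9.55 and 9.40 on untreated arrays. Every irradiated array lay above every untreated one, and the C array was the lowest of each group. The change was 0.88 ± 0.11, or 1.84-fold (95% interval 0.66 to 1.09 on the log2 scale), with an adjusted p of 7.67e-06 from the limma fit of group means and 5.19e-07 with the block. The error and the interval rest on all groups of the series. In limma fits of only the compared arrays, Mdm2 had an adjusted p of 0.617 without and 0.173 with the block. Slc19a2, Phlda3 and Cdkn1a had these same adjusted p in those fits. By letter the difference for Mdm2 was 1.0 for A, 1.05 for B and 0.58 for C. Another Mdm2 probe set had a change of 1.30.

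Cdkn1a (chromosome 17, 29090979 to 29100722, plus strand) encodes p21, the inhibitor of cyclin-dependent kinases through which p53 stops the cycle. It had signals of 11.09, 11.17 and 10.83 on 100 cGy arrays A, B and C, against 10.44, 10.65 and 10.16 on untreated arrays. The groups did not overlap, and the letters gave similar differences of 0.65, 0.53 and 0.67. Cdkn1a rose by 0.61 ± 0.11, 1.53-fold (adjusted p = 0.00719, and 9.16e-04 with the block), and its other probe set had a change of 1.13. The call without the block ended when 100 cGy array A or B, or untreated array A or C, was left out (adjusted p = 0.0931, 0.229, 0.0549 and 0.128); with the block it held without any 1 of the 6 arrays.

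Phlda3 (chromosome 1, 135766085 to 135769134), a p53 target whose protein competes with Akt for membrane lipids, had signals of 9.40, 9.33 and 9.64 in 100 cGy cells and 8.70, 8.82 and 9.07 in untreated cells. The groups did not overlap, and here array C was the highest of each. The change was 0.59 ± 0.10 (adjusted p = 0.00233, and 8.87e-04 with the block), with 0.70, 0.50 and 0.57 for letters A, B and C. Without untreated array A and without the block, its adjusted p was 0.0715.

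Slc19a2 (chromosome 1, 164249046 to 164265385) encodes a thiamine transporter that is known as a p53 target in human cells. Its signals were 8.56, 8.47 and 8.46 in 100 cGy cells, against 7.72, 7.66 and 8.02 in untreated cells, again without overlap. It rose by 0.70 ± 0.10, 1.62-fold (adjusted p = 2.76e-04, and 9.16e-04 with the block). The C pair gave the smallest difference, 0.44, against 0.84 for A and 0.81 for B, and untreated array C was the highest of the untreated arrays. Its second probe set, with a lower signal, had a change of 0.84. With the block and without 100 cGy array A its adjusted p was 0.0502. When the probe sets of a gene were averaged in place of the brightest one, Slc19a2 and Cdkn1a had adjusted p = 0.234 and 0.103 without the block.

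**Figure D2:**
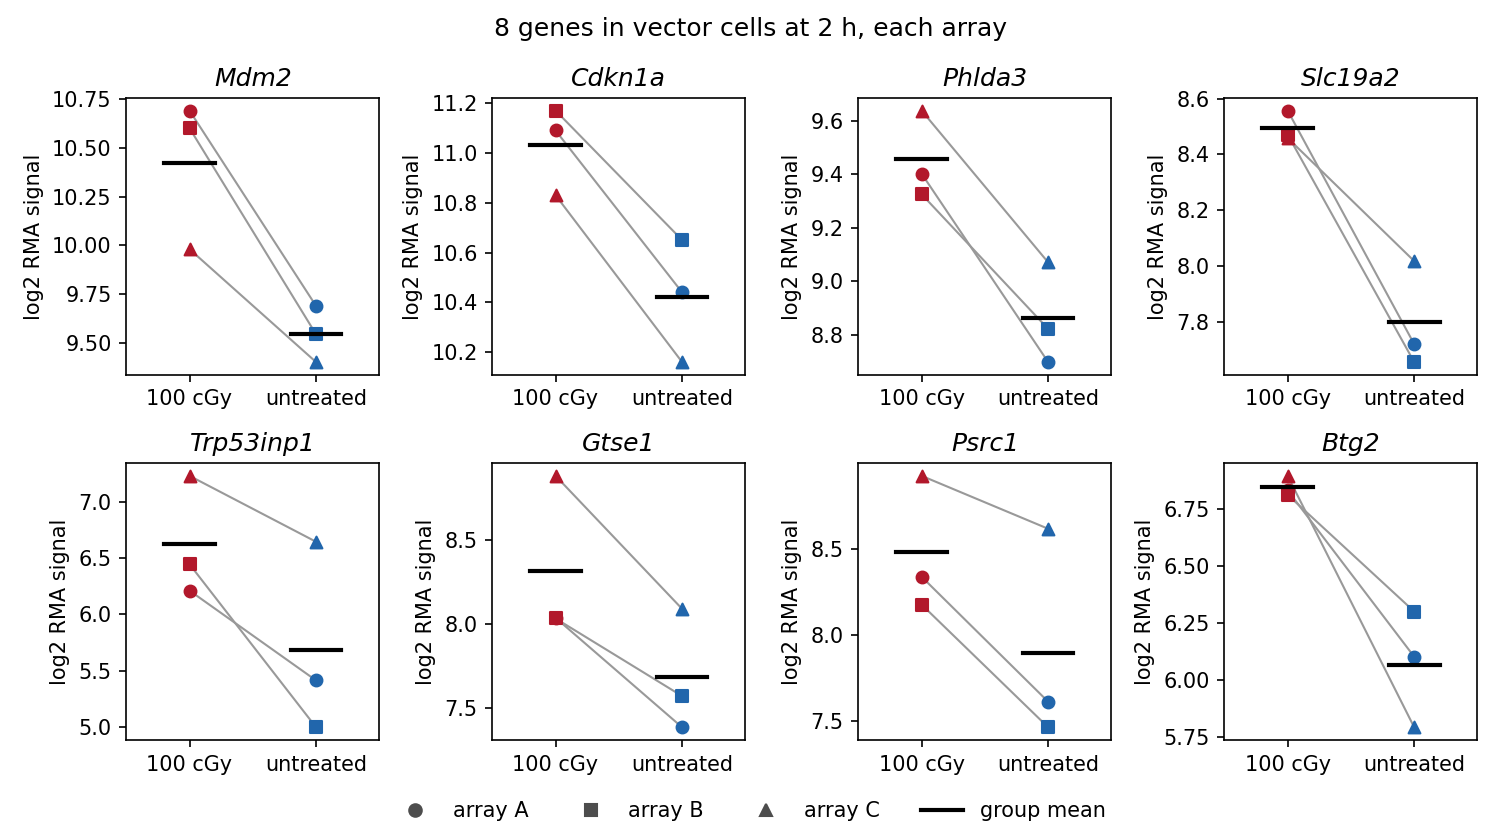
Log2 signal on each of the 6 arrays for 8 genes, 100 cGy left and untreated right, with lines joining arrays of the same letter and bars at the group means (n = 3). Groups do not overlap in Mdm2, Cdkn1a, Phlda3, Slc19a2 and Btg2; in Trp53inp1, Gtse1 and Psrc1 the untreated C array lies above irradiated A and B, and each line still slopes the same way.

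The blocked fit called 8 further genes higher. In Trp53inp1, Gtse1 and Psrc1 the groups overlapped: untreated array C lay above irradiated arrays A and B, while each irradiated array was above the untreated array of its letter. Trp53inp1, a p53-induced nuclear protein active in cell death and autophagy, had signals of 6.21, 6.45 and 7.24 in 100 cGy cells and 5.41, 4.99 and 6.65 in untreated cells. Its change was the largest among the 8675 genes in the upward direction, 0.95 ± 0.29 (adjusted p = 0.271, and 0.00125 with the block). Gtse1 (chromosome 15, 85859691 to 85876573, plus strand), a microtubule-associated protein that binds p53 in G2, had 8.04, 8.03 and 8.88 in 100 cGy cells against 7.38, 7.57 and 8.09 in untreated cells. Gtse1 gave 0.64 ± 0.17 (adjusted p = 0.223, and 0.00125 with the block). Psrc1, a spindle protein described in mouse as regulated by p53, had 8.34, 8.18 and 8.93 in 100 cGy cells against 7.61, 7.46 and 8.62 in untreated cells. Psrc1 gave 0.58 ± 0.20 (adjusted p = 0.319, and 9.16e-04 with the block), with a second probe set above the limit at 0.56.

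The other 5 of these 8 genes were Neat1, Mapk8ip1, Myl6, Trim11 and Aopep. Neat1, the long noncoding RNA that builds paraspeckles in the nucleus and is also known to be induced by p53, had 8.70, 8.76 and 9.11 in 100 cGy cells, against 7.88, 7.81 and 8.40 in untreated cells. Its groups did not overlap, its letters gave 0.82, 0.95 and 0.70, and the change was 0.83 ± 0.19 (adjusted p = 0.0739, and 9.16e-04 with the block). Mapk8ip1, the JNK scaffold JIP1, had 5.21, 4.84 and 4.56 in 100 cGy cells and 4.45, 4.28 and 4.12 in untreated cells, whose signals lie about the low-signal limit. Mapk8ip1 changed by 0.59 ± 0.13 (adjusted p = 0.0593, and 0.0105 with the block), without overlap. Myl6, a myosin light chain of non-muscle cells, changed by 0.39 ± 0.08 (0.0278 with the block) and its arrays are set beside those of the other line further on. Trim11, a ubiquitin ligase, had 7.12, 7.01 and 7.35 in 100 cGy cells and 6.67, 6.65 and 6.81 in untreated cells, a change of 0.45 ± 0.12 (0.0278 with the block), again without overlap. Aopep, an aminopeptidase, changed by 0.35 ± 0.09 (0.0384 with the block), while its other probe set was at -0.09.

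Genes called lower came from the blocked fit alone and were 9: Dmxl1, Aspm, Dbt, Cep68, Sgo1, Dennd4c, Zfpm2, Dnajb9 and Topors. Aspm, which organises spindle poles, had 7.48, 7.54 and 8.05 in 100 cGy cells, against 8.18, 7.95 and 8.30 in untreated cells, a change of -0.45 ± 0.12 (adjusted p = 0.223, and 0.0115 with the block). Its groups overlapped, and its second probe set was at -0.38. Sgo1, the shugoshin that protects cohesin at centromeres, had 8.50, 8.42 and 8.89 in 100 cGy cells against 8.93, 8.82 and 9.12 in untreated cells, a change of -0.35 ± 0.10 (0.0303 with the block). Cep68, a centrosome linker protein, fell by 0.60 in the blocked fit (0.0208), but its other 3 probe sets above the limit were at 0.02, 0.12 and 0.03. Dmxl1 (-0.70 ± 0.15; 0.00740 with the block) and Dbt (-0.70 ± 0.17; 0.0123 with the block), a subunit of the branched-chain ketoacid dehydrogenase, had signals near the limit, at 4.05 to 4.48 and 4.47 to 4.65 in 100 cGy cells.
Topors, a ubiquitin and SUMO ligase that binds topoisomerase I and p53, had 8.52, 8.50 and 8.74 in 100 cGy cells against 8.99, 8.80 and 9.28 in untreated cells. It changed by -0.44 ± 0.11 (0.0437 with the block), and its other probe sets were at -0.13 and -0.09. Dnajb9, a chaperone partner of the endoplasmic reticulum, had 6.95, 6.90 and 6.90 in 100 cGy cells and 7.43, 7.16 and 7.52 in untreated cells, a change of -0.46 ± 0.10 (0.0384 with the block). Neither Topors nor Dnajb9 overlapped between the groups. Dennd4c, an exchange factor for a Rab GTPase (-0.53 ± 0.15; 0.0384 with the block), and Zfpm2, a cofactor of GATA factors (-0.41 ± 0.11; 0.0384 with the block), complete the set. The second probe set of Zfpm2 was at -0.04. Among genes with small p that neither fit called were Plk4, the kinase of centriole duplication (-0.40, adjusted p = 0.11, and 0.101 with the block), whose other probe sets were at -0.18 and -0.19, and Usp1, a deubiquitinase of DNA repair (-0.42, adjusted p = 0.16).

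**Figure D3:**
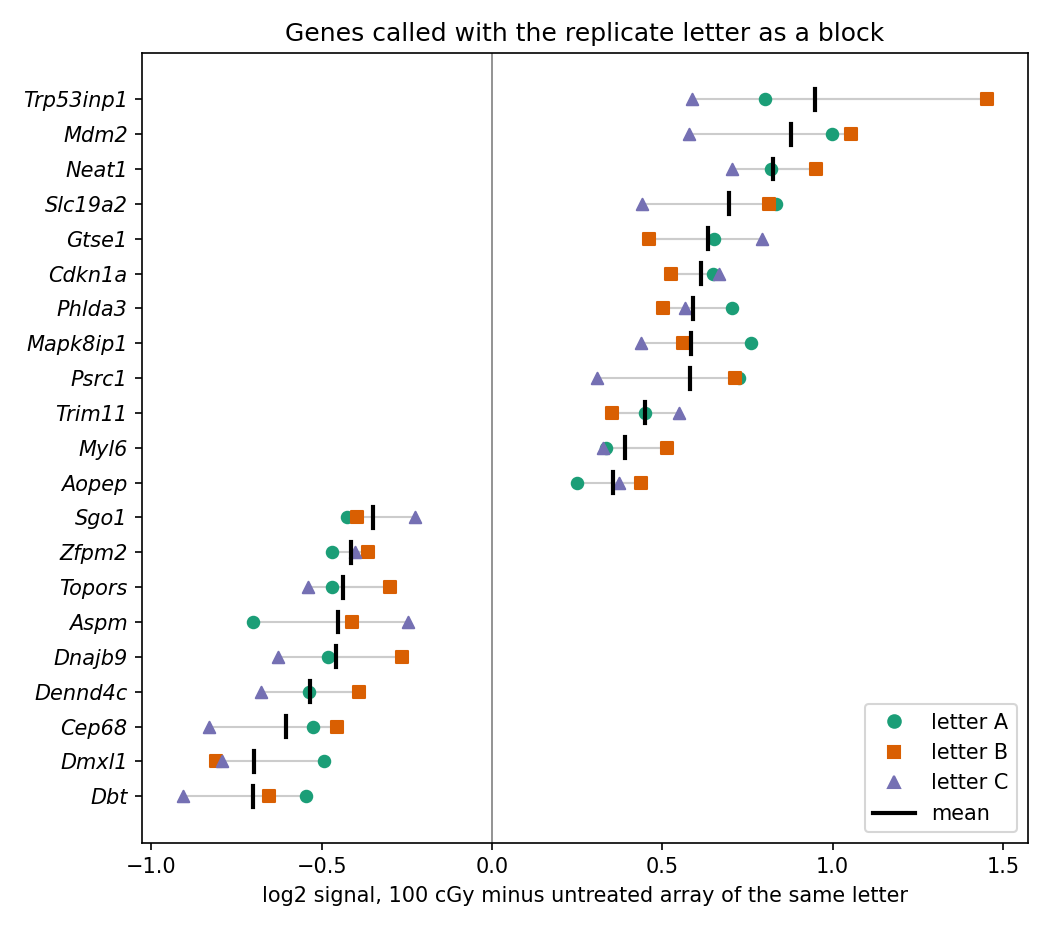
Difference in log2 signal between the 100 cGy and the untreated array of the same letter for the 21 genes called with the letter as a block, with a bar at the mean. All 21 genes have the same sign in A, B and C; the spread between letters is widest for Trp53inp1.

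In all 21 genes called with the block, the 3 letters had the same sign, as did 17.9% of all tested genes in the upward and 20.7% in the downward direction. The groups did not overlap for 13 of the 21, against 9.03% of tested genes higher and 7.91% lower without overlap. The 21 were picked by their differences on these same arrays, which favours a shared sign and a lack of overlap. Both counts therefore describe the called genes and are not separate support for the calls. Single arrays moved these calls. The blocked count was 8, 7 and 14 without 100 cGy array A, B or C, and 9, 349 and 11 without untreated array A, B or C; the 349 were 70 higher and 279 lower. Called in all 6 of these blocked fits were 5 genes, Mdm2, Cdkn1a, Phlda3, Neat1 and Gtse1, and Slc19a2, Psrc1 and Trp53inp1 were called in 5 of 6. Mapk8ip1 and Myl6 were called in 2 of these fits, and Trim11 and Aopep in 1. Among the lower genes Dmxl1 was called in 4 and Aspm in 3, and the other 7 in 1 or 2. Without untreated array C, the one with the raised Gapdh difference, the block called 10 genes higher and 1 lower, Aspm.
The count from group means was 10 without 100 cGy array C, 2 without untreated array A, 23 without untreated array B and 8 without untreated array C.

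Without the C arrays of all 3 dose groups, the fit of group means called 14 genes, 12 higher and 2 lower. The 4 genes above were among them, as were Neat1 (0.89 ± 0.09, adjusted p = 8.81e-08), Psrc1 (0.72 ± 0.08, adjusted p = 7.88e-07), Trp53inp1 (1.13 ± 0.17, adjusted p = 1.85e-04), Gtse1, Myl6 and Mapk8ip1. With the block and without the C arrays 13 genes were called, 11 higher and 2 lower, and Gtse1 and Myl6 were not among them (adjusted p = 0.0788 and 0.0562). Without the block Aspm fell by 0.56 (adjusted p = 0.0127). Gadd45a, a p53 target of growth arrest, was also lower there (-0.62 ± 0.14, adjusted p = 0.0399). With all arrays Gadd45a had 7.77, 7.62 and 6.52 in 100 cGy cells, against 8.28, 8.36 and 6.21 in untreated cells, a change of -0.31 ± 0.32 (adjusted p = 0.709). Letters A and B gave -0.51 and -0.74 and letter C gave 0.31. The other 2 genes called without the C arrays, Mtm1 (1.49 ± 0.23) and Psg28 (0.88 ± 0.15), fall outside the naming rule and were chosen after their values were seen.

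The lists of p53 targets were written from general knowledge with earlier results of these data known, so their counts are descriptions. Over all tested genes 0.0461% rose in the fit of group means, and with the block 0.138% rose and 0.104% fell. Of 22 tested genes of p53 arrest and feedback, 3 rose in the fit of group means and 5 with the block, Mdm2, Cdkn1a, Phlda3, Trp53inp1 and Gtse1, and none fell. At an unadjusted p under 0.05 in the fit of group means, 9 were higher (40.9%, against 4.01% of all tested genes) and none was lower. With the block 9 were higher (40.9%, against 5.01%) and 2 lower (9.09%, against 10.5%), Gadd45a and the sestrin gene Sesn1 (-0.25). Of the 22, 15 were above 0, as were 49.2% of all tested genes. The median change was 0.14, against -0.00 for all tested genes, and the letter medians were 0.08, 0.16 and 0.34 for A, B and C. Without the C arrays 6 were higher and 1 lower at that threshold (27.3% and 4.55%, against 1.95% and 3.70% of all tested genes), with a median of 0.10.
The mean signal of the 22 genes was 7.90, 7.91 and 7.90 on 100 cGy arrays A, B and C, against 7.69, 7.69 and 7.59 on untreated arrays. These means did not overlap.
Btg2, an antiproliferative p53 target, had 6.83, 6.81 and 6.89 in 100 cGy cells, against 6.10, 6.30 and 5.79 in untreated cells. Its groups did not overlap, but the change of 0.78 ± 0.23 was not called (adjusted p = 0.271, and 0.0774 with the block). Anxa2, which the hairpin targets in the other line, had 12.66, 12.57 and 12.60 in 100 cGy cells and 12.66, 12.62 and 12.34 in untreated vector cells. Further p53 target values that were not called were 0.42 for Ei24, 0.37 for Sfn, 0.34 for Zmat3 and 0.31 for Plk2. Sfn signals lay about the low-signal limit, with means of 4.56 in 100 cGy and 4.20 in untreated cells. Ccng1, which encodes cyclin G1 and is a p53 target in many tissues, had 11.10, 11.11 and 11.40 in 100 cGy cells and 11.09, 11.05 and 11.48 in untreated cells. Its change was -0.00 (95% interval -0.22 to 0.21), and its other probe sets, with lower signals, were at 0.44 and 0.30.

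No gene of p53 apoptosis or of p53 repair and metabolism was called by either fit. Of 11 tested apoptosis genes 8 had a change above 0 (72.7%, against 49.2% of all tested genes), with a median of 0.14. At an unadjusted p under 0.05, 1 gene, Aen, was higher (9.09%, against 4.01%), and 2 were higher with the block (18.2%, against 5.01%). Aen, a nuclease induced by p53, had 9.07, 9.04 and 9.15 in 100 cGy cells and 8.81, 8.80 and 8.97 in untreated cells, a change of 0.23 ± 0.08 (adjusted p = 0.319). Of 16 repair and metabolism genes 11 were above 0 (68.8%), with a median of 0.13. At that threshold none was higher or lower in the fit of group means. With the block 2 were higher (12.5%, against 5.01% of all tested genes) and 1 lower (6.25%, against 10.5%). The highest value of these 16 genes was that of Ddb2, the damage sensor of nucleotide excision repair, at 0.37 ± 0.21 (adjusted p = 0.492). Its signals were near the limit, with means of 4.79 in 100 cGy and 4.43 in untreated cells. Its other probe set, below the limit, was at -0.03.

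Genes of DNA damage signalling and repair, of mitosis and of replication lay mostly below 0, where 50.8% of all tested genes lay, and no member was called by either fit. Of 27 DNA damage genes 21 were below 0 with a median of -0.12, and 4 were lower at an unadjusted p under 0.05 (14.8%, against 7.37% of all tested genes). Chek1, the checkpoint kinase, had 8.01, 8.15 and 7.97 in 100 cGy cells and 8.63, 8.13 and 8.93 in untreated cells, so the difference was 0.02 for letter B and -0.96 for letter C. The uracil glycosylase gene Ung was at -0.51 ± 0.16 and Atm, the damage kinase, at -0.29 ± 0.11, while the histone gene H2ax was at 0.24. Of 37 mitotic genes 27 were below 0 (median -0.08), 4 of them at an unadjusted p under 0.05: Ect2 (-0.52), Cenpe (-0.60), Ttk (-0.37) and Ndc80 (-0.29). Cenpe, the kinetochore motor, had a letter C difference of -1.05, against -0.36 and -0.38 for A and B. Of 39 replication genes 29 were below 0 (median -0.06), and 5 were lower at that threshold, among them the origin licensing genes Cdc6 (-0.37) and Cdt1 (-0.23). Cdt1 had letter differences of -0.14, -0.05 and -0.495 for A, B and C, and its second probe set above the limit was at -0.05.
With the block 8 DNA damage genes, 10 mitotic genes and 6 replication genes were lower at that threshold (29.6%, 27.0% and 15.4%, against 10.5% of all tested genes). Without untreated array C, in the fit of group means, 2 DNA damage genes, 0 mitotic genes and 1 replication gene were lower at an unadjusted p under 0.05, against 4.13% of all tested genes. That fit kept 100 cGy array C, where the mitotic mean signal was 9.346, against 9.109 and 9.057 on 100 cGy arrays A and B. The letters were thus not balanced between the groups. Without the 3 C arrays, which keeps the balance, the numbers were 2, 4 and 1, against 3.70%. The medians were then -0.117, -0.118 and -0.041, with 31 of the 37 mitotic genes below 0.

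Medians of the remaining lists were near 0 with all arrays. They were 0.00 for 31 immediate early genes, 0.02 for 27 NF-kB inflammatory genes, -0.01 for 14 interferon response genes and 0.01 for 22 NRF2 antioxidant genes, and neither fit called any member. Without untreated array C, in the fit of group means, the medians were -0.18, 0.08, 0.18 and 0.02 in that order. Of the 31 immediate early genes 21 were then below 0, and of the 14 interferon genes 10 were above 0. That fit kept 100 cGy array C, so the letters were not balanced between the groups. The immediate early mean signal was 7.674 on 100 cGy array C, against 8.325 and 8.313 on 100 cGy arrays A and B. The interferon mean signal was 5.876 on 100 cGy array C, against 5.519 and 5.486 on A and B. These medians therefore mix dose with letter. Without the 3 C arrays, which keeps the balance, the medians in the same order were 0.05, 0.04, 0.02 and -0.01. The chemokine gene Ccl2 had 9.49, 9.61 and 10.41 in 100 cGy cells and 9.03, 9.40 and 9.25 in untreated cells (0.61 ± 0.30, adjusted p = 0.447), with its largest difference in letter C (1.16). Klf10 was at -0.48, Hmox1, which encodes heme oxygenase, at 0.35 and the immunoproteasome gene Psmb9 at 0.43 ± 0.12 (adjusted p = 0.223).

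**Figure D4:**
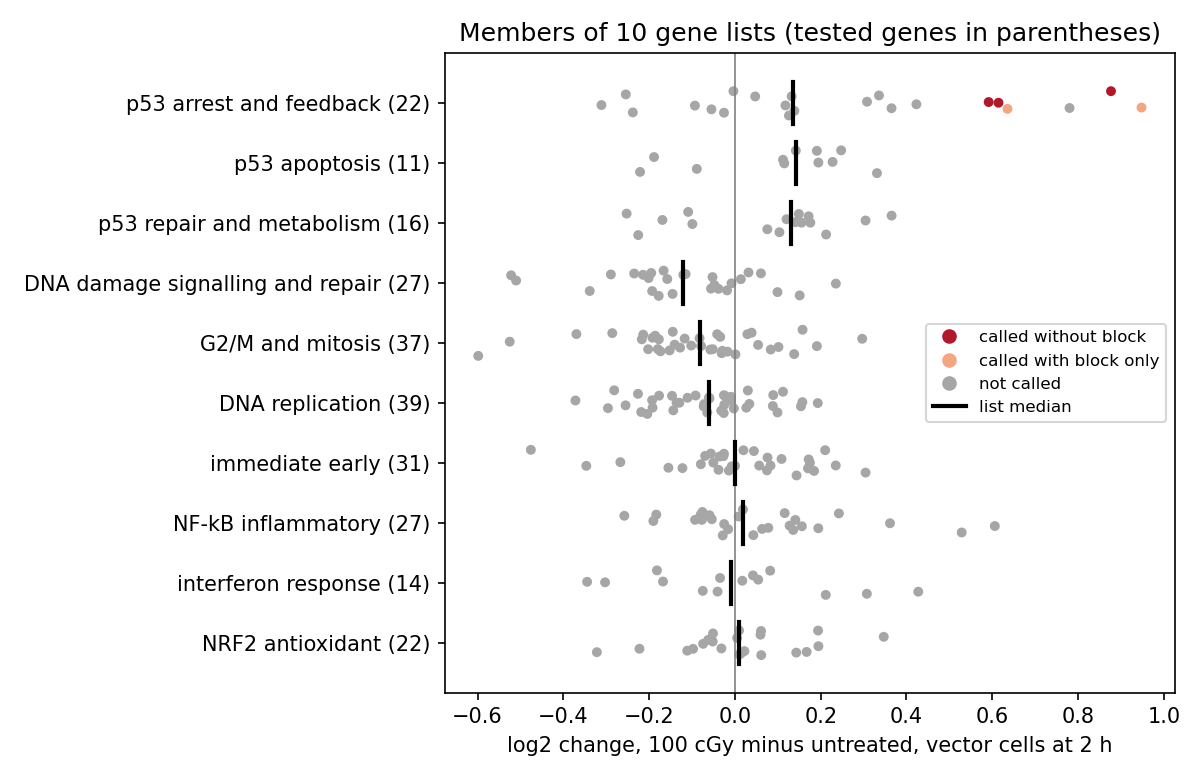
Change (log2, 100 cGy minus untreated) of each tested member of 10 gene lists, with a bar at the list median; vertical scatter within a row carries no value. Called members are all among p53 arrest and feedback, 3 without the block and 2 more with it, and the medians of the 3 DNA damage, mitosis and replication lists lie below 0.

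The sum of the log2 signals of the 19 epithelial markers was 84.82 to 85.13 in 100 cGy cells and 82.26 to 83.62 in untreated cells. In this sum each marker counts alike, and 12 of the 19 were below the low-signal limit on these arrays. The mean of the 8 epithelial markers that entered the test, which used the mean over all 47 arrays, was 5.73 to 5.77 in 100 cGy and 5.61 to 5.75 in untreated cells, and these ranges overlapped. The sum of the log2 signals of the 20 fibroblast markers was 177.3 to 178.8 in 100 cGy cells and 179.9 to 182.0 in untreated cells. The mean of the 17 tested ones was 9.90 to 9.97 in 100 cGy and 10.03 to 10.17 in untreated cells, without overlap; none was called, 14 of the 17 were below 0 and the median change was -0.14. For leukocyte markers (13 genes, 6 above the limit) the sums were 56.83 to 57.23 in 100 cGy and 55.87 to 57.03 in untreated cells. For endothelial markers (10 genes, 2 above the limit) they were 40.18 to 40.63 in 100 cGy and 39.36 to 40.11 in untreated cells. For melanocyte markers (8 genes, 3 above the limit) they were 34.23 to 35.19 in 100 cGy and 34.03 to 35.33 in untreated cells. In bulk RNA, fewer cells of a type and less RNA per cell cannot be told apart. Genes higher at an unadjusted p under 0.05 had a median span on the genome of 9.8 kb, and lower genes of 42.4 kb, against 21.5 kb for all tested genes. The 12 and 9 genes called with the block had medians of 17.3 and 36.9 kb. The part of the markers, of gene span and of the Gapdh difference in these changes was not tested.

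The promoter windows of the called genes are shown because 3 of those that rose hold a match to the p53 binding motif. RefSeq windows (GRCm38.p6) run from 250 bases before to 50 bases after a start site, so that the start is base 251 of 300, and 14 of the 21 genes called with the block matched 18 windows. A window was searched for the 10-base p53 half-site, which reads as itself on the other strand, and for a paired site, a pair of half-sites at most 1 base apart with at most 2 mismatches in all. This rule was chosen after these windows had been seen. Of 32851 windows, 8.36% hold a half-site and 0.682% a paired site. Among the 14 genes, Mdm2, Cdkn1a and Gtse1 hold a half-site, and Cdkn1a and Gtse1 a paired site. Counted as windows these are 3 of 18 with a half-site and 2 of 18 with a paired site, and Cdkn1a and Gtse1 each have a second window with neither. The window of Mdm2 lies at chr10:117710709-117711008 on the minus strand, that of Cdkn1a at chr17:29090729-29091028 and that of Gtse1 at chr15:85859696-85859995, both on the plus strand. Capitals mark the half-site in Mdm2 and the paired site in Cdkn1a and Gtse1.
Mdm2: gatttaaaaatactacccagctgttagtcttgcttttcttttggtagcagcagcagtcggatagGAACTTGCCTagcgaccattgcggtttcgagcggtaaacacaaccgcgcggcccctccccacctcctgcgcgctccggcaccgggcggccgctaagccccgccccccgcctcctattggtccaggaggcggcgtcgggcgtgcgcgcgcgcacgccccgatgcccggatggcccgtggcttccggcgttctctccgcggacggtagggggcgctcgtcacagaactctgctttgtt
Cdkn1a: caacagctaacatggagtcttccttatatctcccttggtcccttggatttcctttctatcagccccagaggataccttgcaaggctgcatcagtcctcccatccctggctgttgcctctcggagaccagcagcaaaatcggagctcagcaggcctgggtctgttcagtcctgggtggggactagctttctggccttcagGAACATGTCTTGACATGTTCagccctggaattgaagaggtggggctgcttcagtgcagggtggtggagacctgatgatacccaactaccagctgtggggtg
Gtse1: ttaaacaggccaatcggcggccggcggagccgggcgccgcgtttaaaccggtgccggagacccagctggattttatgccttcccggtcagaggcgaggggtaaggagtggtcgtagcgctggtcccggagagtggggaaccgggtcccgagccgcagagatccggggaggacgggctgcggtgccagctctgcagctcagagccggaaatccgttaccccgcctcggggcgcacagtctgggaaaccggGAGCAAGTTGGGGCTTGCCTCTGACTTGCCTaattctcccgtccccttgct
The paired site of Cdkn1a covers bases 200 to 219, ahead of the start, with no base between its half-sites. In Gtse1 overlapping pairs cover bases 250 to 280, from the base before the start onward. The match is one of letters in these windows, and no binding was measured on these arrays.

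At 10 cGy the same vector cells gave no called gene at 2 h by limma, with or without the block (0%), while 508 genes (5.86%) had an unadjusted p under 0.05. This comparison shares its untreated arrays with the one above, so the values are set side by side. The 10 cGy and the 100 cGy change were 0.25 and 0.88 for Mdm2, 0.16 and 0.61 for Cdkn1a, 0.24 and 0.59 for Phlda3, and 0.05 and 0.70 for Slc19a2. For Trp53inp1 they were 0.03 and 0.95, for Gtse1 0.06 and 0.64, for Psrc1 0.05 and 0.58, and for Neat1 -0.14 and 0.83. Of the lower genes, Dmxl1 had -0.43 and -0.70 and Aspm -0.34 and -0.45. The count at 10 cGy was 7 without 10 cGy array C and 5 without untreated array C.

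Tested directly, 100 cGy minus 10 cGy called 3 genes higher (0.0346%) and none lower in the fit of group means (320 genes, 3.69%, at an unadjusted p under 0.05). Slc19a2 had 8.56, 8.47 and 8.46 at 100 cGy and 7.59, 7.89 and 8.07 at 10 cGy, a difference of 0.65 ± 0.10 (adjusted p = 0.00251). Mdm2 had 9.91, 9.90 and 9.58 at 10 cGy and was 0.63 ± 0.11 higher at 100 cGy (adjusted p = 0.00480). Neat1 had 7.31, 7.53 and 8.82 at 10 cGy and was 0.97 ± 0.19 higher at 100 cGy (adjusted p = 0.0207). Letter C stood apart in these groups too, while A and B were not told apart. With the block 8 genes were higher (0.0922%), also Trp53inp1 (0.92), Psrc1 (0.53), Gtse1 (0.57), Trim11 (0.53) and Cdkn1a (0.45, adjusted p = 0.0441). Phlda3, with 9.08, 8.87 and 9.34 at 10 cGy, differed by 0.36 ± 0.10 and was not called (adjusted p = 0.882, and 0.204 with the block). The count of 3 was 0 without 100 cGy array A (237 genes at an unadjusted p under 0.05), 1 without 100 cGy array B or 10 cGy array A, and 29 without 10 cGy array C; with only the compared arrays it was 0 with or without the block (565 and 215 genes at an unadjusted p under 0.05).

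In shRNA cells at 2 h after 100 cGy the same fit called Slc19a2 (0.67 ± 0.10, adjusted p = 0.00129) and Mdm2 (0.63 ± 0.11, adjusted p = 0.00463), which is 0.0231% of the tested genes (363 genes, 4.18%, at an unadjusted p under 0.05). Mdm2 had 10.54, 10.43 and 10.43 in irradiated and 9.78, 9.93 and 9.81 in untreated shRNA cells. The difference between the lines, vector minus shRNA, was 0.25 ± 0.15 for Mdm2, 0.03 ± 0.15 for Slc19a2, 0.40 ± 0.16 for Cdkn1a and 0.49 ± 0.14 for Phlda3, and was called for none of these (adjusted p = 0.48, 0.956, 0.348 and 0.345). It was called for 1 gene (0.0115%), Myl6, and 1091 genes (12.6%) had an unadjusted p under 0.05. Myl6 had 7.15, 7.30 and 7.22 in irradiated and 6.82, 6.79 and 6.90 in untreated vector cells, and 6.92, 7.0 and 7.13 in irradiated and 7.28, 7.20 and 7.39 in untreated shRNA cells. The irradiated arrays were thus the higher ones in the vector line and the lower ones in the shRNA line, and the responses differed by 0.66 ± 0.12 (adjusted p = 0.0177). This call ended without any 1 of 6 of the 12 arrays, vector 100 cGy B or vector untreated A (adjusted p = 0.14 and 0.0801), shRNA 100 cGy A or B (0.149 and 0.0674) or shRNA untreated A or C (0.0574 and 0.161). The count was 2 without vector 100 cGy or untreated array C, and 5 without vector untreated array B.

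At 24 h after 100 cGy, vector cells had 6 genes higher (0.0692%) and 2 lower (0.0231%), Cdkn1a among the higher ones (0.82 ± 0.11, adjusted p = 1.03e-04, limma). With the block 10 were higher (0.115%) and 7 lower (0.0807%), and 288 genes (3.32%) had an unadjusted p under 0.05. Cdkn1a had 10.02, 10.17 and 10.25 in irradiated cells at 24 h, against 9.37, 9.44 and 9.17 in untreated cells. The response at 2 h minus that at 24 h was -0.21 ± 0.16 for Cdkn1a (adjusted p = 0.892) and 0.18 ± 0.14 for Phlda3 (0.892). For Mdm2 it was 0.64 ± 0.15, which was called with the block (adjusted p = 0.178, and 0.0193 with the block). Mdm2 had 8.90, 8.97 and 8.98 in irradiated and 8.70, 8.85 and 8.58 in untreated cells at 24 h. Neat1 was the 1 gene called in the fit of group means (0.0115%), by 1.51 ± 0.26 (adjusted p = 0.0115), and 450 genes (5.19%) had an unadjusted p under 0.05. Neat1 had 9.19, 9.15 and 9.19 in irradiated cells and 9.94, 9.83 and 9.83 in untreated cells at 24 h, so the irradiated arrays were the lower ones then and the higher ones at 2 h. This call ended without 100 cGy array C or untreated array B of 2 h (adjusted p = 0.0556 and 0.0532), or without 100 cGy array B or untreated array A of 24 h (adjusted p = 0.0508 and 0.0637), and the count was 2 without untreated array A of 2 h. With the block 5 genes were called, 3 higher (0.0346%) and 2 lower (0.0231%): Neat1, Mdm2, the nuclear noncoding RNA Malat1 (1.28), the interferon-induced gene Ifit1 (-1.25, with 1.29 at 24 h) and the phosphatase gene Ptpn22 (-0.88).

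**Figure D5:**
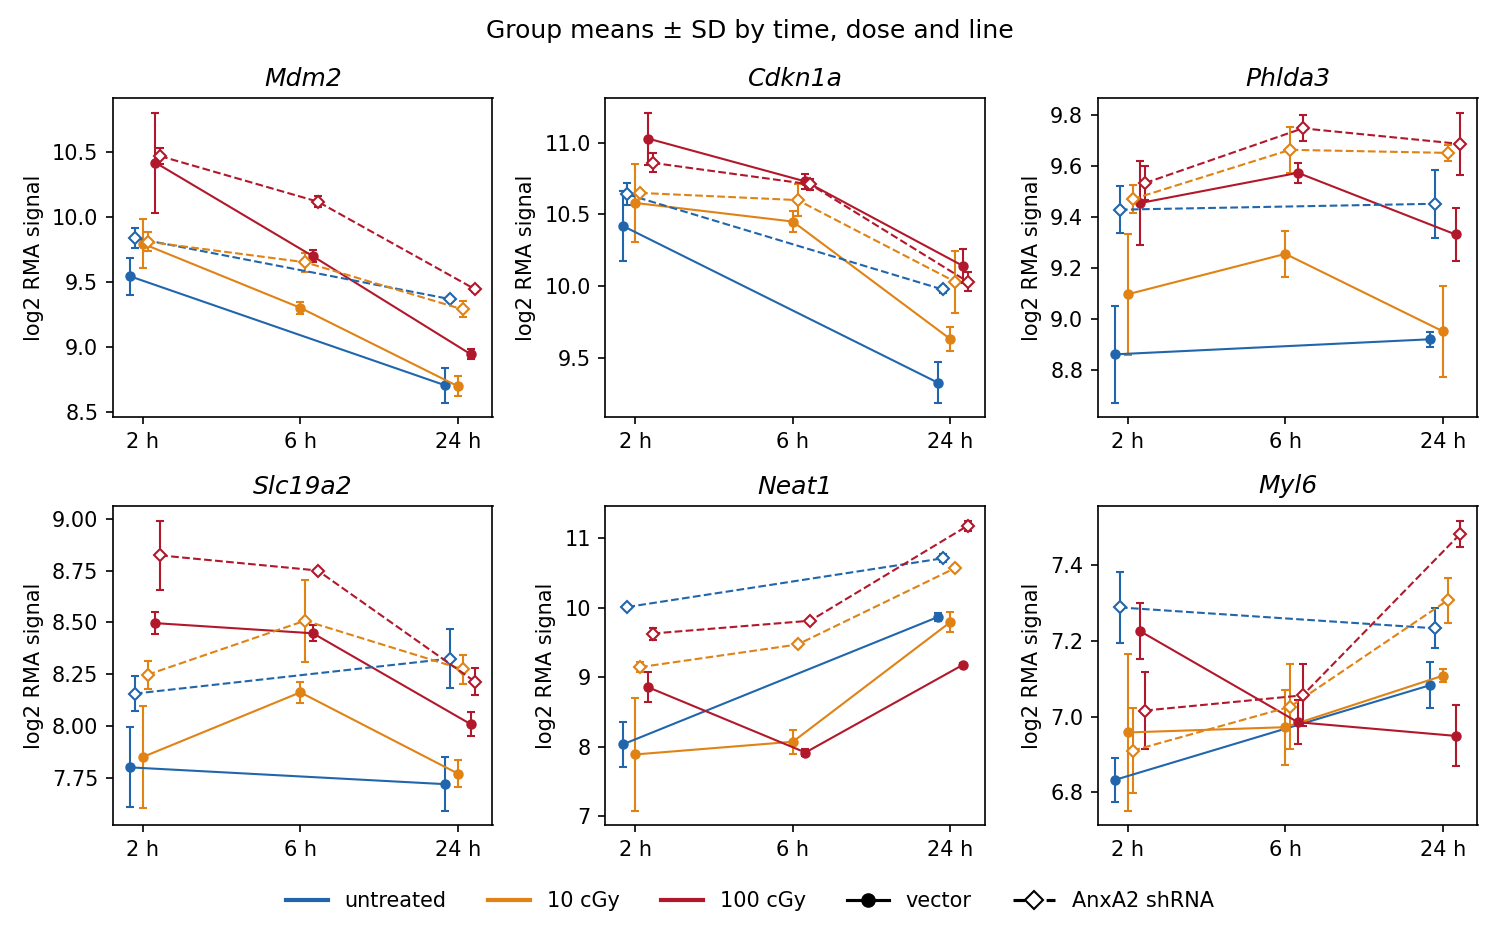
Group means of log2 signal with SD (n = 3 arrays, and 2 for 10 cGy vector cells at 24 h) for 6 genes by time, dose and line; the times are evenly spaced categories, and no untreated 6 h group was used. Mdm2 at 100 cGy stands highest at 2 h in both lines, and Neat1 in vector cells lies above its untreated group at 2 h and below it at 24 h.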

How the data were processed

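RNA of JB6 cells was measured on Affymetrix mouse arrays with 22690 probe sets, from 3 µg of total RNA per the labels' protocols. The authors deposited log2 values (1.84 to 14.03), summarised by RMA per the submitters' processing notes, and they were used as deposited; no version of RMA is stated in the sources used here. Beside 64 control probe sets, the platform annotation gives 20380 probe sets 1 symbol, 691 more than 1 and 1555 none; RefSeq (GRCm38.p6) names 20351 of the first kind. The probe set with the highest mean stood for each of 12393 genes, and the lowest 30% were left out.

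A limma 3.58.1 fit (R 4.3.3) of 16 group means to 47 arrays (31 residual and 5.68 prior degrees of freedom) gave each contrast, two-sided, with Benjamini-Hochberg adjustment; the block was the replicate letter within line and time (19 and 6.26). The method was tested on simulated data. No arrays were identical (0 pairs).

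Letters count as pairing where deviations from group means correlate above 0.1 for every letter. For 100 cGy and untreated vector arrays at 2 h the correlations were 0.51, 0.339 and 0.63, and for 100 and 10 cGy 0.476, 0.483 and 0.72. Deviations of A and B also correlated across letters, at 0.407 and 0.457 for 100 cGy and untreated arrays and at 0.452 and 0.525 for 100 and 10 cGy. Thus A and B are not told apart, and the rule can be met because C stands apart. For 100 cGy and untreated vector arrays at 24 h the correlations by letter were 0.197, 0.268 and 0.147. For 10 cGy and untreated arrays (0.265, 0.0769 and 0.347) and for shRNA arrays (-0.172, -0.13 and 0.572) the rule was not met.

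Named genes were all called genes of the main comparison, up to 12 in each direction with the block, the 8 in each direction with the smallest p, up to 4 members of each list, and Cdkn1a, Mdm2, Ccng1 and Anxa2; the text gives those that matter. Of other contrasts up to 5 called genes in each direction could be named. Members and lists were chosen with earlier results of these data known. Alternatives were other filters, probe set means, array weights, a variance trend, median centring, fewer arrays and the block. Figures were drawn with matplotlib 3.10.9.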

Additional observations from a re-analysis of the deposited data

Results flagged for a closer look

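The response of Myl6 to 100 cGy at 2 h differed between the lines by 0.66 (adjusted p = 0.0177, limma), with a change of 0.39 in vector and -0.27 in shRNA cells, neither called in the fit of group means (adjusted p = 0.0593 and 0.909). All 3 irradiated vector arrays lay above, and all 3 irradiated shRNA arrays below, the untreated arrays of their line. The response of Neat1 to 100 cGy in vector cells differed between the times by 1.51 (adjusted p = 0.0115, limma), with a change of 0.83 at 2 h and -0.69 at 24 h (adjusted p = 0.0739 and 0.272, and 9.16e-04 and 0.00770 with the block).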

How the results depend on the processing

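For 100 cGy minus untreated, the count of 4 called genes was 5 with no filter on low values, 6 without the lowest 50% of genes, 3 with probe sets averaged and 4 with a variance trend. It was 7 with arrays centred on their median, 14 without the 3 C arrays, 567 with array weights, 21 with the replicate block and 0 with only the compared arrays, with or without the block, or with the 9 vector arrays and the block. Leaving out 1 array gave 2 to 23. Chosen after seeing the data, the block gave 13 without the C arrays, 22 with C set against A and B as the block, and 8, 7 and 14 without 100 cGy A, B or C and 9, 349 and 11 without untreated A, B or C. Gene-by-gene array weights were also chosen after seeing the data, since the default weights stopped before converging; weights raised the count in all 5 comparisons, and the cause was not tested.

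For 10 cGy minus untreated the count of 0 was 246 with weights, 10 without the C arrays and 0 to 7 without 1 array; for 100 minus 10 cGy the count of 3 was 399, 13 and 0 to 29, 8 with the block, and 0 with only the compared arrays with or without it. For vector minus shRNA the count of 1 was 527, 5 and 0 to 5, 4 with the block (higher for Neat1, Myl6 and Malat1, lower for Dennd4c), whose letters did not pair the shRNA arrays, and 0 with only the compared arrays and no block (446 genes at an unadjusted p under 0.05). For 2 h minus 24 h the count of 1 was 73, 8 and 0 to 2, 5 with the block, 4 with median centring, and 0 and 4 with only the compared arrays, without the block (511 genes at an unadjusted p under 0.05) and with it.

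Of the 4 called genes, no alternative turned the direction; 20 of 100 values lost the call, 12 of them where only the compared or the 9 vector arrays were fitted. Sign changes were 19, all of values not called. Ccng1 (-0.0035) was at 0.25 with probe sets averaged, 0.027 with array weights, 0.035 with median centring, 0.035 without the C arrays with or without the block, -0.10 to 0.13 without 1 array (above 0 without 100 cGy A, 100 cGy B or untreated C), and 0.011 and 0.066 with the block and without 100 cGy B or untreated C. Anxa2 (0.07) was at -0.014 with probe sets averaged, -0.026 with array weights, -0.023 without the C arrays with or without the block, -0.028 to 0.13 without 1 array (below 0 without untreated C), and -0.011 with the block and without untreated C. Gadd45a (-0.31) was at -1.01 to 0.080 without 1 array, above 0 without 100 cGy C, untreated A or untreated B.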
